A study of Homo sapiens with 20 samples.

Results

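MDA-MB-468 cells that had been kept in EGF for 48 h were compared with the same cells kept in it for 24 h, by RNA sequencing of 4 libraries per time point. The 8 libraries were those that the sample labels give as 24 or 48 h of EGF, out of 20 in the series. MDA-MB-468 is an established epithelial line of triple-negative breast cancer with a high level of the EGF receptor. All cells were serum-starved, after which EGF at 50 ng/mL was added for 12, 24, 48 or 72 h or not at all, and, per the labels, plating and collection were shared by all groups while the start of EGF treatment was staggered. Cells with 24 h of EGF had thus been longer in culture before EGF than those with 48 h. Time in EGF and time before it cannot be told apart here. Each of the 5 groups holds 4 biological replicates, all from 1 cell line, and the untreated control has a single time. The untreated libraries are used here as the level from which a change at 24 or 48 h was counted.

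EGF binds the receptor EGFR, which signals through the RAS-ERK and PI3K pathways to induce immediate early transcription factors, further ligands of the same receptor, and inhibitors that feed back on the pathway. In this line the response includes parts of epithelial-mesenchymal transition (EMT), in which epithelial cells lose contacts and produce mesenchymal proteins such as vimentin and fibronectin. The question was which changes present at 24 h were lost or kept at 48 h, and which were called at 48 h but not at 24 h.

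The total of estimated counts per library ranged from 16120115 to 21419262 at 24 h and from 16527104 to 24098943 at 48 h. Expression is given as CPM, the count of a gene relative to the TMM-scaled library total, and p-values come from the quasi-likelihood test of edgeR with Benjamini-Hochberg adjustment over 16522 genes, in one model of all 20 libraries. A gene is said to have risen or fallen where the adjusted p was under 0.05. The ± after a log2 fold change is its standard error. Mitochondrially encoded genes held 12.42% ± 1.2 of counts at 24 h and 12.54% ± 3.03 at 48 h (SD, n = 4), a difference within the spread between libraries (two-sided exact permutation test, p = 0.943; the smallest p of this design is 0.0286). Of the libraries compared, replicate 2 at 48 h had the highest mitochondrial share, 16.85%, and replicate 1 at 24 h often lay nearer to the control than the other libraries of its group. Without replicate 1 at 24 h, 8284 genes were called between the time points, and without replicate 2 at 48 h 7754, against 8292 with all libraries. In bulk RNA, a smaller share of cells with a transcript and less of it per cell cannot be told apart.

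Between 24 and 48 h, 8292 genes changed, 50.2% of those tested, of which 4272 rose (25.9%) and 4020 fell (24.3%). Counts of rises and falls in the gene lists below are to be read against these shares. When libraries were scaled by total counts only, 71.8% of the genes called had risen rather than 51.5%, and the median of all genes moved from 0.02 to 0.17 on the log2 scale, so that small changes in one direction depend on the scaling. Beyond 1.5-fold upward, or the matching limit downward, there were 2614 rises (15.8%) and 1325 falls (8.02%), together 23.8% of genes. All 4 libraries at 48 h lay above all 4 at 24 h in 23.1% of genes, and below them in 21.5%. Against the control, 9717 genes were called at 24 h (58.8%, with 29.2% higher and 29.6% lower) and 7562 at 48 h (45.8%, with 24% higher and 21.8% lower).

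The 3 tests together sort each gene by what became of its change. A change was counted as lost where it was called at 24 h, not called at 48 h, and the step from 24 to 48 h was itself called in the opposite direction. This held for 3229 genes, 19.5% of those tested, of which 1530 had been higher than the control at 24 h and 1699 lower. A further 1909 genes (11.6%) were reduced, meaning still changed in the same direction at 48 h but called as closer to the control. Kept changes, called in the same direction at both times with no called step between them, numbered 2572 (15.6%), and 502 changes (3.04%) were enlarged. Gained changes, not called at 24 h but called at 48 h after a called step, numbered 1459 (8.83%), 729 higher and 730 lower. In 487 genes (2.95%) the direction turned, 199 from higher to lower and 288 from lower to higher. The remainder held 1651 genes called at one time only with no called step to match (9.99%), 706 genes called only between 24 and 48 h (4.27%), and 4007 genes with no call. Both time points were set against the same control libraries. The step from 24 to 48 h also rests on the same 24 and 48 h libraries, so the 3 tests are not independent.

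**Figure D1:**
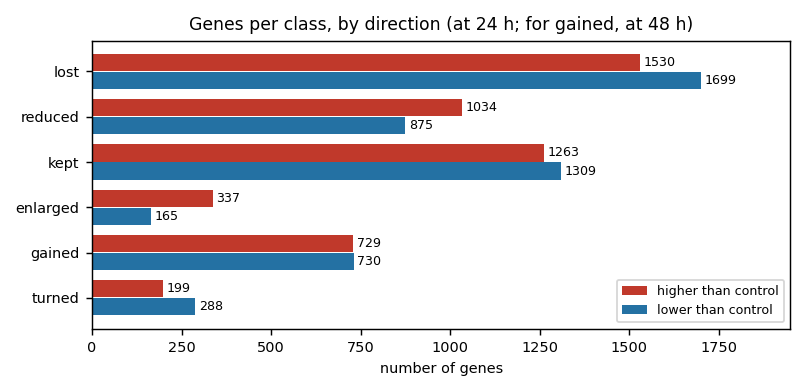
Number of genes (horizontal axis) in each class between 24 and 48 h of EGF, by direction against the untreated control at 24 h (for gained, at 48 h); bars start at 0. The longest bars are those of lost changes, 1530 higher and 1699 lower, and the shortest those of enlarged and turned changes.

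**Figure D2:**
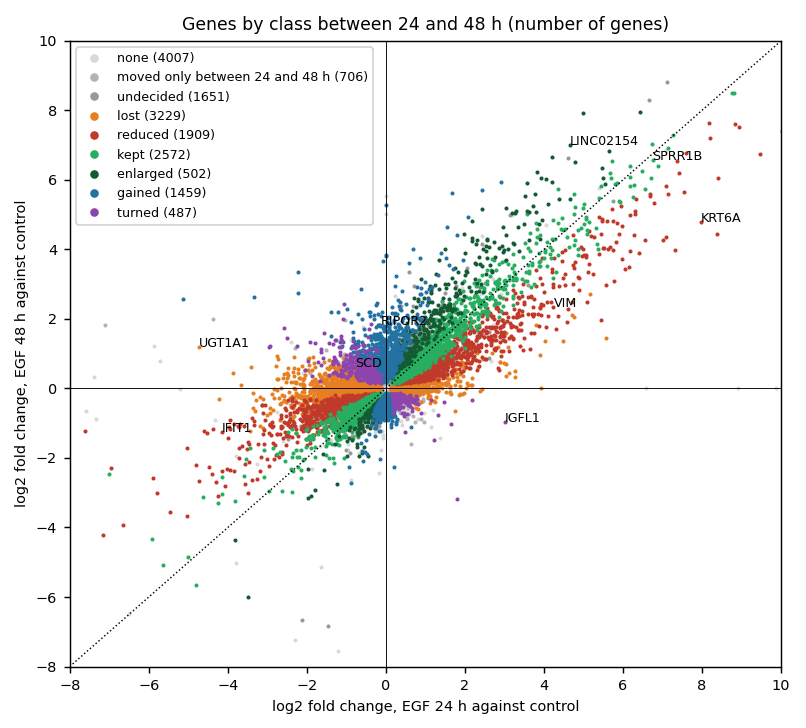
Each point is a gene tested, with its log2 fold change against the untreated control at 24 h (horizontal axis) and at 48 h (vertical axis), colored by class; both axes share the control libraries, the dotted line marks equal change, and 6 genes lie outside the plotted range. Reduced changes such as KRT6A and VIM lie between the dotted line and the horizontal axis, and turned changes such as IGFL1 lie in the quadrants where the axes differ in sign.

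Genes of stratified squamous epithelium gave several of the deepest falls. KRT6A, a keratin of activated keratinocytes, was at 541, 686, 623 and 719 CPM in the 4 libraries at 24 h and at 61.7, 65.4, 76.9 and 77.0 CPM at 48 h, against 3.37, 2.14, 2.22 and 2.60 CPM in the control. The EGF groups did not overlap, and the lowest 48 h library still lay above all controls (log2 fold change -3.19 ± 0.103, adjusted p = 1.21e-16). The gene lies at chr12:52487174-52493257 on the minus strand (GENCODE 29, GRCh38). SERPINB5, the serpin maspin, was at 266, 394, 426 and 459.6 CPM at 24 h and at 57.9, 50.2, 68.3 and 64.3 CPM at 48 h (log2 fold change -2.68 ± 0.135, adjusted p = 1.26e-12). SERPINB2, plasminogen activator inhibitor 2, was at 25.1, 62.2, 59.0 and 83.2 CPM at 24 h, where replicate 1 was the lowest, and at 5.597, 3.86, 6.65 and 6.48 CPM at 48 h (log2 fold change -3.33 ± 0.295, adjusted p = 1.01e-07). The desmosomal cadherin DSG3 had no count in any control library, reached 6.18, 10.7, 9.36 and 11.8 CPM at 24 h and was at 1.11, 1.37, 1.52 and 1.77 CPM at 48 h (log2 fold change -2.70 ± 0.191, adjusted p = 4.47e-10). SERPINB4 fell from a mean of 52.8 to 7.88 CPM; it has a near-identical neighbor, SERPINB3, as KRT6A has KRT6B and KRT6C, and reads of such pairs may have been split between them. Of 32 squamous and cornified envelope genes tested, 21 fell, 4 rose and 7 did not pass, with a median log2 fold change of -0.88 against 0.02 over all genes. Their summed expression ranged from 5052 to 6326 CPM at 24 h and from 2540 to 2792 CPM at 48 h, where it met the lower end of the control libraries, 2740 to 2988 CPM. Counted gene by gene, the list had not returned to the control. At 48 h 20 of the 32 genes were above it and 5 below, against 24% and 21.8% of all genes. The median log2 fold change against the control was 2.39 at 24 h and 1.49 at 48 h, and 16 changes were reduced and 4 lost. The small proline-rich protein SPRR1B did not follow this pattern: it was at 46.6, 61.2, 59.7 and 60.1 CPM at 24 h and at 47.0, 50.8, 53.3 and 50.4 CPM at 48 h, overlapping, with controls near 0.527 CPM (log2 fold change -0.18 ± 0.0742, adjusted p = 0.0531).

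The stretches before the start sites of 3 of these genes are shown because 2 of them fell and 1 was kept while each holds the AP-1 letters TGANTCA, the kind of site bound by FOS and JUN proteins. They were taken from RefSeq (GRCh38.p14), read 5′ to 3′ on the plus strand, with the match on either strand in capitals. They lie at chr18:63887556-63887655 for SERPINB2, chr18:63476765-63476864 for SERPINB5 and chr1:153031045-153031144 for SPRR1B. Each precedes a single RefSeq start, and which start these cells use was not tested. For SERPINB2 and SERPINB5 the stretch lies within the GENCODE 29 span, which begins at 63871692 and 63476761.
SERPINB2: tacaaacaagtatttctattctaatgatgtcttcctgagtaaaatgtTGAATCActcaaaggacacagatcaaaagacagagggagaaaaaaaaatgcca
SERPINB5: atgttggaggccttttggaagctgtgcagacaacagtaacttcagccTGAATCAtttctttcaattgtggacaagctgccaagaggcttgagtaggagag
SPRR1B: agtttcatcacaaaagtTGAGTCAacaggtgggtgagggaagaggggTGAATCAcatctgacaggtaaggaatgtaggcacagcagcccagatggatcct
SPRR1B had 2 matches in these 100 bases and the other genes 1 each. Among 21 squamous genes with a promoter in the table, 6 had a match in the 250 bases before the start (28.6%). The share was 6.6% of all 27305 promoters and 4.33% of the 11369 promoters of genes tested. Over all genes that rose above 1.5-fold it was 5.61% of 1621, and over those that fell past the matching limit 5.39% of 947. Such a match describes letters only, and no binding was measured.

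**Figure D3:**
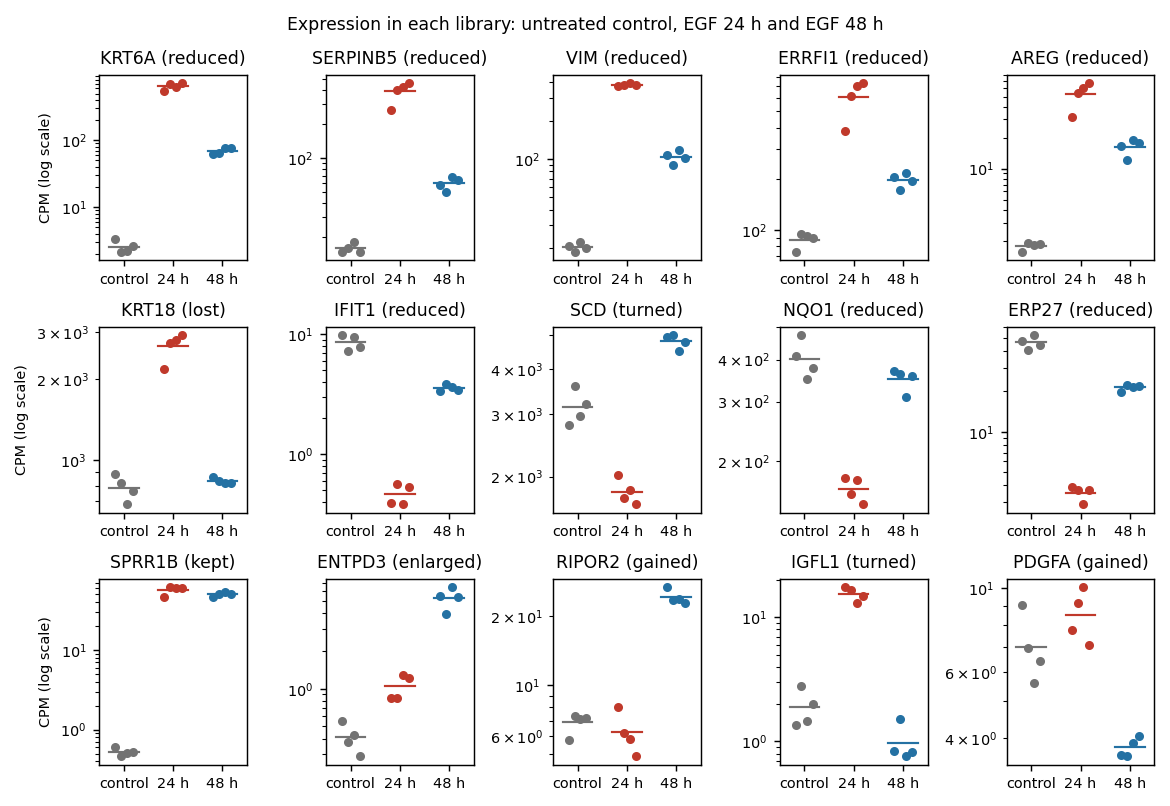
Expression in CPM (vertical axes, log scale) in each of the 4 libraries of the untreated control (gray), EGF 24 h (red) and EGF 48 h (blue) for 15 genes, with the class in brackets; each point is a library, in the order of the replicate numbers, and each line the group mean. KRT6A, SERPINB5, VIM, ERRFI1 and AREG lie between the 24 h and control levels at 48 h, KRT18 lies back at the control level, and SCD and IGFL1 pass to the other side of the control.

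Most feedback inhibitors of EGF signaling were lower at 48 h, while receptors and ligands moved in both directions. ERRFI1, whose product binds and inhibits EGFR, was at 381, 615, 705 and 733 CPM at 24 h and at 204, 172, 218 and 195 CPM at 48 h, with a control mean of 87.8 CPM. All 48 h libraries lay below all 24 h libraries and above all controls (log2 fold change -1.63 ± 0.146, adjusted p = 2.44e-08). Among 18 feedback inhibitors of the pathway, 12 fell, 1 rose and 5 did not pass, with a median log2 fold change of -0.89. The ERK phosphatase DUSP7 fell to a mean of 11.8 from 37.0 CPM, the sprouty protein SPRY4 to 14.9 from 44.8 CPM, and PHLDA1 to 213 from 639 CPM. Of the 18 genes, 11 had changes that were reduced and 1 a change that was lost, and 12 were still higher than the control at 48 h. The ligand AREG, amphiregulin, was at 31.4, 53.9, 60.3 and 67.6 CPM at 24 h and at 16.5, 12.0, 18.99 and 17.6 CPM at 48 h, a 3.26-fold fall (log2 fold change -1.71 ± 0.196, adjusted p = 9.53e-07). HBEGF and TGFA, further ligands of the receptor, also fell, by 2.26-fold and 1.62-fold. EGFR itself was at 6996, 7689.8, 9047 and 7420.5 CPM at 24 h and at 5202, 5733, 6141 and 5352 CPM at 48 h, where it remained above the control libraries, which were at 3357, 3534, 3421 and 3583 CPM (log2 fold change -0.47 ± 0.0662, adjusted p = 2.9e-06). Over the 12 receptors and ligands tested, 6 fell and 3 rose (median -0.22), which became 4 and 4 with scaling by total counts only. Of these, 1 rise passed 1.5-fold and 3 falls the matching limit. The receptor and the ligands named here all fell.

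Of 22 immediate early and AP-1 factors, 13 fell and 3 rose (median -0.38). FOSL1, an AP-1 subunit, was at 44.6, 86.8, 99.8 and 97.2 CPM at 24 h and at 27.5, 25.0, 26.8 and 23.2 CPM at 48 h, with no overlap (log2 fold change -1.68 ± 0.196, adjusted p = 1.39e-06). The ETS factor ETV5 fell from 78.7 to 39.2 CPM. FOS, with means of 3.42, 5.41 and 2.18 CPM in the control, at 24 h and at 48 h, was above the control at 24 h and below it at 48 h.

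Of 23 targets of NF-kB, cytokines and chemokines, 9 fell and 6 rose (median -0.26). The cytokine LIF was at 15.8, 48.6, 47.1 and 55.1 CPM at 24 h and at 9.75, 5.48, 6.88 and 5.85 CPM at 48 h (log2 fold change -2.58 ± 0.325, adjusted p = 6.25e-06). Replicate 1 was far below the other 24 h libraries, and the groups still did not overlap. The chemokine CXCL8 was at 41.6, 102, 99.2 and 157 CPM at 24 h and at 38.7, 30.1, 51.5 and 42.2 CPM at 48 h, where the groups overlapped through replicate 1 of 24 h (log2 fold change -1.30 ± 0.289, adjusted p = 0.00145). ICAM1, an adhesion molecule for leukocytes, went the other way, from 36.1 to 61.5 CPM (log2 fold change 0.77 ± 0.0959, adjusted p = 6.23e-07).

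Mesenchymal markers did not move together. VIM, the intermediate filament vimentin, was at 372, 382, 396 and 383 CPM at 24 h and at 107, 89.6, 117 and 102 CPM at 48 h, and the controls were at 20.5, 18.6, 22.1 and 19.99 CPM. The 3 groups did not overlap, and the 48 h level was 5.11-fold the control (log2 fold change -1.88 ± 0.0727, adjusted p = 4.01e-15 between the time points). The gene spans chr10:17228259-17237593 on the plus strand with 9 exons. TNC, the matrix protein tenascin C, fell from 23.8 to 5.78 CPM, and the fibronectin receptor subunit ITGA5 from 14.4 to 7.32 CPM. FN1, fibronectin, was at 78.3, 95.5, 115 and 93.0 CPM at 24 h and at 65.6, 59.8, 80.3 and 63.0 CPM at 48 h, a smaller fall with overlapping libraries (log2 fold change -0.50 ± 0.102, adjusted p = 0.000284). SNAI1, an EMT transcription factor, rose: it was at 3.91, 3.50, 2.82 and 2.00 CPM at 24 h and at 6.76, 6.99, 4.90 and 4.71 CPM at 48 h, with every 48 h library above every 24 h library (log2 fold change 0.93 ± 0.200, adjusted p = 0.000485). The change of THBS1, thrombospondin 1, was lost, from a mean of 75.8 to 28.1 CPM against 20.6 CPM in the control. Over 16 mesenchymal genes tested, 9 fell and 4 rose (median -0.53), and 12 were still above the control at 48 h, of which 8 were reduced and 3 enlarged. Ezrin, EZR, which links membranes to actin, fell from 184 to 125 CPM. A list of 17 tested EMT, receptor and desaturase genes, drawn in part from the same markers, had 11 falls and 3 rises (median -0.47).

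Genes of matrix proteolysis and adhesion followed with 13 falls and 5 rises among 24 (median -0.55). PLAT, tissue plasminogen activator, fell from 35.9 to 5.39 CPM (log2 fold change -2.73 ± 0.168, adjusted p = 1.35e-11). ITGA2, a subunit of a collagen receptor, fell 3.27-fold and the protease inhibitor SERPINE2 2.81-fold. Against the control, 20 of the 24 genes were higher at 24 h and 20 at 48 h, and 13 changes were reduced.

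Of 25 epithelial markers tested, 13 fell, 1 rose and 11 did not pass (median -0.22). With scaling by total counts only, 8 fell and 3 rose (median -0.068). Of their 22 changes at 24 h 9 were lost, beside 3229 of 9717 over all genes. KRT18, a keratin of simple epithelia, was at 2174, 2724, 2789.5 and 2912 CPM at 24 h and at 859.7, 836, 823 and 823 CPM at 48 h, and the controls were at 884, 817, 684 and 767 CPM. The 48 h libraries lay within the range of the controls (log2 fold change -1.67 ± 0.0838, adjusted p = 3.02e-13; against the control at 48 h, adjusted p = 0.42). Its partner KRT8 fell from 371 to 154 CPM, with 146 CPM in the control. The spans of KRT18 and KRT8 overlap on opposite strands, and the strand setting of the counts is not given. The desmosomal cadherins DSC2 and DSG2 fell 2.04-fold and 1.86-fold. CDH1, E-cadherin, was at 93.5, 107, 112 and 98.0 CPM at 24 h and at 90.8, 102, 89.2 and 89.8 CPM at 48 h, with overlapping groups (log2 fold change -0.14 ± 0.0802, adjusted p = 0.146). It was called below the control at both times, and its sign between them turned with scaling by total counts only. EPCAM, an epithelial adhesion molecule, fell from 185 to 158 CPM, a call that was lost when libraries were scaled by total counts only (adjusted p = 0.428). Of the 25 markers, 16 were above the control at 24 h and 3 at 48 h.

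Several of the steepest rises were returns of genes that had been low at 24 h. ERP27, an endoplasmic reticulum protein of the disulfide isomerase family, was at 3.86, 3.67, 2.89 and 3.66 CPM at 24 h and at 19.8, 22.4, 21.4 and 22.1 CPM at 48 h, and the controls were at 47.9, 40.9, 52.5 and 44.2 CPM (log2 fold change 2.60 ± 0.115, adjusted p = 5.01e-14). METTL7A, a methyltransferase-like protein, was at 3.26, 0.904, 0.833 and 0.976 CPM at 24 h, with replicate 1 above the rest, and at 13.2, 13.4, 10.9 and 12.8 CPM at 48 h (log2 fold change 3.03 ± 0.259, adjusted p = 4.16e-09). ATP6V1B1, a subunit of the vacuolar proton pump, was at 4.70, 2.94, 3.14 and 3.76 CPM at 24 h and at 24.9, 25.7, 17.6 and 20.4 CPM at 48 h (log2 fold change 2.59 ± 0.158, adjusted p = 7.19e-12). In each of the 3 genes no library of one group reached the other. The aminoacylase ACY3, the pseudogene CPHL1P and the long non-coding RNA LINC02541 rose 6.33-fold, 6.24-fold and 7.13-fold and likewise stayed below the control. UGT1A1, which conjugates bilirubin, had the steepest fitted rise of the genes named, from 0.346, 0.226, 0.449 and 0.195 CPM at 24 h to 21.2, 30.5, 10.9 and 12.2 CPM at 48 h. Its controls were spread from 0.982 to 14.0 CPM, and it shares its last exons with the other UGT1A genes, so its share of their reads is uncertain (log2 fold change 5.94 ± 0.967, adjusted p = 9.68e-05). UGT1A6, of the same locus, was at 7.07, 8.02, 3.78 and 7.13 CPM at 24 h and at 35.5, 36.1, 34.2 and 40.5 CPM at 48 h, above all controls (log2 fold change 2.48 ± 0.188, adjusted p = 7.07e-10).

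Interferon-stimulated genes were among the returns. IFIT1, which binds viral RNA, was at 0.395, 0.565, 0.385 and 0.537 CPM at 24 h and at 3.38, 3.86, 3.61 and 3.399 CPM at 48 h, and the controls were at 9.79, 7.23, 9.39 and 7.74 CPM (log2 fold change 2.90 ± 0.209, adjusted p = 1.03e-10). The antiviral enzyme RSAD2, or viperin, was at 2.08, 1.70, 1.80 and 1.90 CPM at 24 h and at 5.43, 4.45, 5.89 and 6.12 CPM at 48 h, where it overlapped the controls at 5.17, 3.99, 5.29 and 5.38 CPM (log2 fold change 1.55 ± 0.159, adjusted p = 3.36e-08). IFIT2 rose from 2.10 to 5.82 CPM and IFI44 from 3.81 to 7.26 CPM, and both changes were lost. ISG20, an exonuclease, went against them, from 5.83, 8.31, 5.77 and 7.08 CPM at 24 h to 2.94, 3.62, 2.32 and 3.63 CPM at 48 h (log2 fold change -1.12 ± 0.150, adjusted p = 1.79e-06). Of 28 genes tested, 17 rose, 5 fell and 6 did not pass, with a median log2 fold change of 0.53; 17 had been below the control at 24 h and 5 were so at 48 h. Most of these genes were at a few CPM, and with the scaling recovered from the deposited normalized values, which could be applied to 19 of them, 5 rose and 4 fell. That scaling has its own factor for each gene in each library.

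The stretches before the start sites of 3 of these genes are shown since IFIT1 and IFI44 rose and ISG20 fell, while all hold the letters GAAANNGAAA of the interferon-stimulated response element (ISRE). They are RefSeq sequences (GRCh38.p14) on the plus strand, with matches on either strand in capitals, at chr10:89392475-89392574 for IFIT1, chr1:78649689-78649788 for IFI44 and chr15:88638902-88639001 for ISG20.
IFIT1: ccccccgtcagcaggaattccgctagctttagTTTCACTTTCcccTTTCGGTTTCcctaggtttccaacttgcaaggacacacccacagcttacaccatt
IFI44: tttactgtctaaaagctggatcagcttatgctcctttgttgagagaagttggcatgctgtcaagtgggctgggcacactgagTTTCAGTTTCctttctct
ISG20: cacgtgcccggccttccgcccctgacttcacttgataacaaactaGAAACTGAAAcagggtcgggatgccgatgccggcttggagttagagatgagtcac
IFIT1 had 2 matches and the others 1 each. The match was found in the 250 bases before the start of 12 of 20 interferon-stimulated genes in the table (60%) and of 3.07% of all 27305 promoters. Over all genes that rose above 1.5-fold and had a promoter in the table, the share was 3.33% of 1621, and over those that fell past the matching limit 2.11% of 947. Over the 11369 promoters of genes tested it was 2.33%.

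Lipid genes moved in both directions. SCD, which makes monounsaturated fatty acids, was at 2017, 1739, 1834 and 1674 CPM at 24 h and at 4932, 4983, 4493 and 4778 CPM at 48 h, and the controls were at 2792, 3588, 2951 and 3194 CPM. All 24 h libraries lay below and all 48 h libraries above the controls, so that the change turned (log2 fold change 1.40 ± 0.0714, adjusted p = 3.61e-13). SCD has 6 exons at chr10:100347124-100364834 on the plus strand. LPCAT3, which loads polyunsaturated acyl chains onto lysophospholipids, was at 32.3, 29.8, 30.8 and 27.9 CPM at 24 h and at 71.4, 74.3, 62.6 and 71.5 CPM at 48 h, against a control mean of 77.3 CPM (log2 fold change 1.21 ± 0.0815, adjusted p = 3.71e-11). It overlaps a gene on the opposite strand, and whether counting used strand is not given in the sources used here. SREBF1, a transcription factor of lipid synthesis, and MYLIP, a ligase that directs the LDL receptor to degradation, rose 2.04-fold and 2.32-fold. These are targets of the liver X receptors (LXR), of which 7 were tested; 5 rose and 2 fell, with a median of 1.03 on the log2 scale. In cholesterol synthesis, 11 of 24 genes rose and 2 fell (median 0.16). TM7SF2, a sterol reductase, rose from 7.81, 7.74, 5.07 and 5.76 CPM at 24 h to 28.6, 33.2, 19.1 and 21.4 CPM at 48 h (log2 fold change 1.95 ± 0.185, adjusted p = 2.01e-08). DHCR7, the enzyme of the last step to cholesterol, rose 1.51-fold, and MVD and PMVK of the mevalonate pathway 1.47-fold and 1.55-fold; all 4 changes were lost.

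The desaturases of polyunsaturated fatty acids were above the control at both times. The span of FADS1 lies within that of FADS2 on the opposite strand, and whether counting used strand is not given. FADS1 was at 10.1, 8.02, 8.40 and 8.54 CPM at 24 h and at 9.64, 9.88, 9.19 and 8.66 CPM at 48 h (log2 fold change 0.09 ± 0.0979, adjusted p = 0.471), and all of these values exceeded the controls, which were near 4.97 CPM. FADS2 was at 17.8, 19.6, 18.4 and 16.3 CPM at 24 h and at 22.8, 25.4, 20.2 and 20.4 CPM at 48 h (log2 fold change 0.30 ± 0.0955, adjusted p = 0.011). That rise no longer passed without replicate 4 at 24 h (adjusted p = 0.0502) or without replicate 2 at 48 h (adjusted p = 0.0562). SCD5, a second stearoyl-CoA desaturase, fell from 147 to 86.4 CPM, and the elongase ELOVL4 from 73.5 to 23.3 CPM, while ACSL1, which activates long-chain fatty acids, rose from 167 to 249 CPM. Together, 10 of 25 genes of fatty acid synthesis and desaturation rose and 6 fell (median 0.14). With scaling by total counts only 15 rose and 3 fell, and with the scaling recovered from the deposited normalized values 5 of 23 rose and 4 fell.

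Among 65 glycerophospholipid enzymes tested, 25 fell, 14 rose and 26 did not pass (median -0.07). At 24 h 28 had been above the control and 14 below it. Of these changes 20 were lost, beside 3229 of 9717 over all genes. GPAT3, which acylates glycerol-3-phosphate, was at 20.9, 28.2, 32.2 and 34.8 CPM at 24 h and at 4.82, 4.55, 7.07 and 6.30 CPM at 48 h, with controls near 1.18 CPM (log2 fold change -2.34 ± 0.148, adjusted p = 1.35e-11). LPCAT1, an acyltransferase for lysophosphatidylcholine and lysophosphatidylglycerol, was at 26.8, 31.4, 31.9 and 33.3 CPM at 24 h and at 19.2, 18.7, 17.97 and 17.9 CPM at 48 h, and the controls were at 30.4, 31.1, 26.9 and 28.9 CPM. Its level at 24 h overlapped the control and that at 48 h lay below it, a gained change (log2 fold change -0.74 ± 0.0759, adjusted p = 3.14e-08). LPCAT4 fell from 17.5 to 10.4 CPM and stayed above its control mean of 4.28 CPM. The diacylglycerol kinase DGKH fell 2.18-fold and the phospholipase PLAAT3 rose 2.20-fold, and neither was called different from the control at 48 h. With scaling by total counts only, the enzyme list had 18 rises and 17 falls, and its median changed sign to 0.08.

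Targets of NRF2 and other antioxidant genes rose in 12 of 19 cases and fell in 2 (median 0.43). NQO1, a quinone reductase, was at 178, 159, 175 and 149 CPM at 24 h and at 369, 363, 309.6 and 358 CPM at 48 h (log2 fold change 1.08 ± 0.0831, adjusted p = 3.44e-10), below the mean of the controls, 402 CPM. The ferritin heavy chain FTH1 was at 2596, 2828, 2949.9 and 2798 CPM at 24 h and at 4951, 4956, 4333 and 4209 CPM at 48 h, and so passed from below the controls to above them (log2 fold change 0.72 ± 0.0639, adjusted p = 3.09e-09). The light chain FTL rose 1.86-fold; both ferritin genes have processed pseudogenes that may share their reads. GPX4, which removes lipid peroxides, rose 1.70-fold. Of 29 lysosomal genes, 13 rose and 3 fell (median 0.24), or 21 and 1 with scaling by total counts only (median 0.40), with GAA, acid alpha-glucosidase, at 9.05, 8.31, 9.87 and 7.08 CPM at 24 h and 26.8, 27.3, 17.1 and 19.8 CPM at 48 h (log2 fold change 1.41 ± 0.186, adjusted p = 2.19e-06). Cathepsin B, CTSB, fell 1.72-fold.

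Cell cycle genes moved in both directions. Of 40 genes of mitosis and G2/M, 17 rose, 3 fell and 20 did not pass (median 0.17), where 30 had been below the control at 24 h and 21 were at 48 h. With scaling by total counts only 23 rose and none fell (edgeR), and with the recovered scaling 10 rose and 1 fell. HMMR, a spindle-associated protein, was at 44.5, 36.8, 31.2 and 35.6 CPM at 24 h and at 67.3, 59.8, 73.4 and 80.4 CPM at 48 h, a range that met the controls, 78.7, 52.0, 79.5 and 67.3 CPM (log2 fold change 0.92 ± 0.116, adjusted p = 7.32e-07). AURKB, a mitotic kinase, was at 14.7, 14.8, 15.6 and 12.9 CPM at 24 h and at 27.3, 30.6, 21.01 and 24.6 CPM at 48 h (log2 fold change 0.83 ± 0.137, adjusted p = 2.38e-05). The mitotic transcription factor FOXM1 rose 1.54-fold and survivin, BIRC5, 1.48-fold. The promoter of HMMR is shown for its pair of matches to TTTGAA, the cell cycle homology region (CHR) found in promoters of many mitotic genes, in capitals (RefSeq, GRCh38.p14, chr5:163460532-163460631, plus strand).
HMMR: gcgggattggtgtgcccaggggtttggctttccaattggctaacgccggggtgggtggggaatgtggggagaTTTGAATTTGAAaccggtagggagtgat
Of 34 mitotic genes with a promoter in the table, 17 held these letters on either strand within 250 bases (50.0%). The share was 13.6% of all 27305 promoters and 8.8% of the 11369 promoters of genes tested. Over all genes that rose above 1.5-fold it was 10.2% of 1621, and over those that fell past the matching limit 8.76% of 947.

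Of 40 DNA replication genes, 18 fell and 10 rose (median -0.13), where 24.3% of all genes fell and 25.9% rose. The rises were thus near the share over all genes. With scaling by total counts only this became 8 falls and 12 rises, and with the recovered scaling 11 falls and 7 rises. The helicase subunit MCM6 fell from 151 to 92.0 CPM, from above the control to below it. Among genes of nucleotide supply, thymidine kinase TK1 rose 1.83-fold and the ribonucleotide reductase subunit RRM2 1.56-fold. Of 22 CDK inhibitors, G1 cyclins and E2F factors, 11 fell and 6 rose (median -0.29), the rises again near the share over all genes. With scaling by total counts only there were 8 falls and 7 rises, and with the recovered scaling 7 and 5 of 21. CCND1, cyclin D1, was at 119.7, 159.7, 163 and 175 CPM at 24 h and at 83.0, 76.1, 84.6 and 81.8 CPM at 48 h, where it met the control libraries at 79.2, 80.8, 78.0 and 79.7 CPM (log2 fold change -0.92 ± 0.0832, adjusted p = 4.14e-09). CDKN1A, the CDK inhibitor p21, was at 239.6, 337, 348 and 371 CPM at 24 h and at 193, 158, 181 and 178 CPM at 48 h, still above its control mean of 67.0 CPM (log2 fold change -0.87 ± 0.113, adjusted p = 1.27e-06). Cyclin E1, CCNE1, and the kinase CDK6 fell 2.10-fold and 1.83-fold, and the inhibitor CDKN2C rose 2.14-fold. MYC, a transcription factor of growth, fell from 227 to 165 CPM with overlapping libraries.

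Histone genes whose main transcripts lack a poly(A) tail rose in 9 of 11 cases (median 0.93). None fell by edgeR, also at an unadjusted p under 0.05, or by DESeq2. H2BC5 was at 3.56, 2.83, 2.89 and 3.42 CPM at 24 h and at 10.5, 8.71, 9.04 and 10.9 CPM at 48 h, approaching the controls at 13.1, 12.4, 13.5 and 12.8 CPM (log2 fold change 1.62 ± 0.119, adjusted p = 1.72e-10). H1-2 rose 1.99-fold and H2BC12 1.91-fold, the latter to above the control. Histone genes resemble each other closely, so reads may have been split between them, and most of their transcripts lack the poly(A) tail by which mRNA is usually captured.

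Of 40 ribosome biogenesis genes, 30 fell and none rose by edgeR (median -0.37), with 0 rises at an unadjusted p under 0.05 and 0 by DESeq2. Under the other scalings tried there were 21 to 30 falls and no rise. UTP20, a factor of small subunit processing, was at 31.3, 34.6, 43.1 and 42.4 CPM at 24 h and at 17.0, 17.4, 18.8 and 17.6 CPM at 48 h, the latter below all controls (log2 fold change -1.09 ± 0.0943, adjusted p = 2.14e-09). NPM1, nucleophosmin, was at 3409, 3453, 3516 and 3785 CPM at 24 h and at 2227, 2047, 2499 and 2459 CPM at 48 h (log2 fold change -0.62 ± 0.0690, adjusted p = 1.22e-07); it has many pseudogenes. The RNA helicase DDX21 and the RNA methyltransferase NOP2 fell 1.75-fold and 1.61-fold. Of the 40 genes, 17 were above the control at 24 h and 1 at 48 h, whereas 2 were below it at 24 h and 23 at 48 h. Glycolytic genes fell in 10 of 21 cases and rose in 1 (median -0.21), with PFKP, a phosphofructokinase, at 117 and 61.0 CPM, lactate dehydrogenase LDHA at 1147 and 732 CPM, and the lactate transporter SLC16A1 at 61.9 and 35.7 CPM on average at 24 and 48 h.

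**Figure D4:**
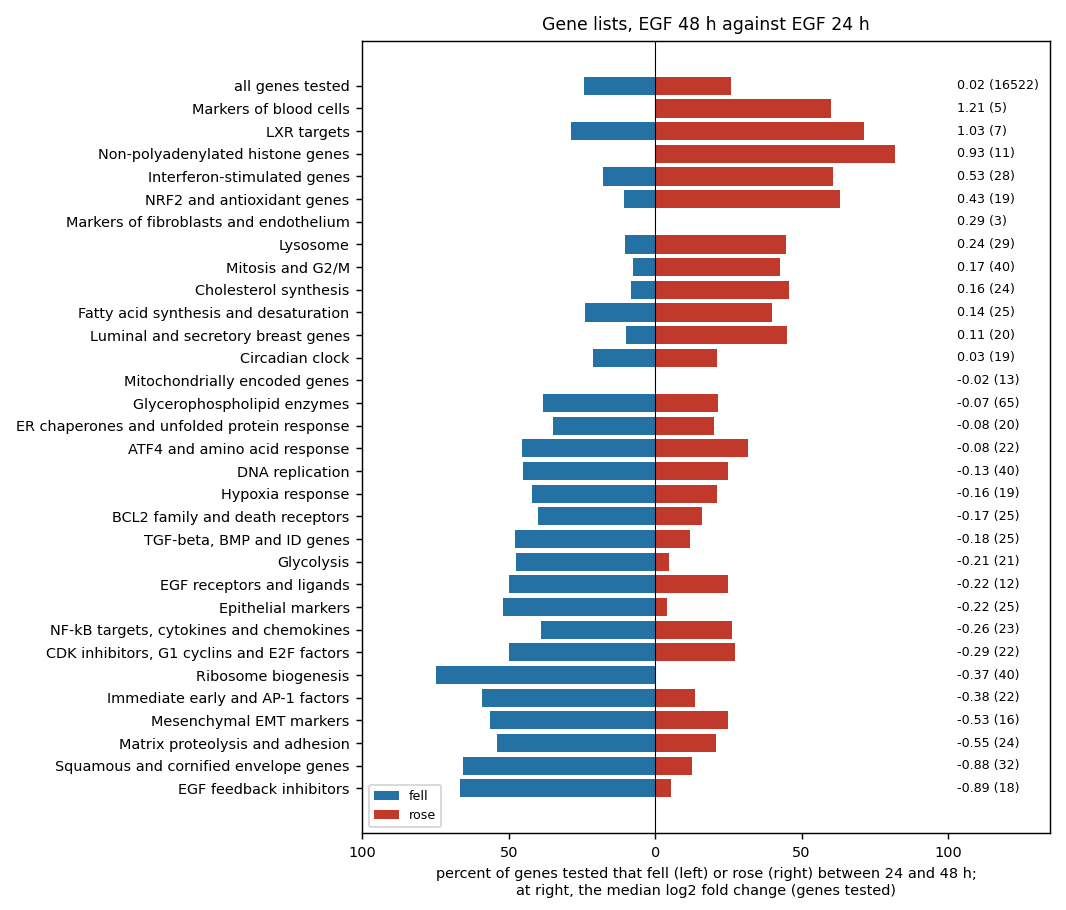
For each gene list, the percent of genes tested that fell (blue, to the left) or rose (red, to the right) between 24 and 48 h, with the median log2 fold change and the number of genes tested at the right; the top bar holds all genes tested, of which 24.3% fell and 25.9% rose. Feedback inhibitors of EGF signaling, squamous genes and ribosome biogenesis lie far to the left, and histone, LXR, interferon and NRF2 lists to the right.

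The remaining lists are likewise read against 25.9% of rises and 24.3% of falls over all genes. The hypoxia response had 8 falls and 4 rises among 19, with NDRG1 down 2.20-fold and the vasodilator adrenomedullin, ADM, up 1.55-fold. In the ATF4 and amino acid response 10 of 22 fell and 7 rose, and in the chaperones of the endoplasmic reticulum 7 of 20 fell and 4 rose. Of 25 TGF-beta, BMP and ID genes, 12 fell and 3 rose (median -0.18); INHBA, which forms activin A, fell 3.05-fold with overlapping libraries, and the ligand TGFB2 rose 1.61-fold. In the BCL2 family and death receptors 10 of 25 fell, among them BCL2 at 2.11-fold, and 4 rose. The circadian clock list had 4 rises and 4 falls among 19, with NPAS2 down 2.20-fold. None of 13 mitochondrially encoded genes was called by the edgeR quasi-likelihood test or the DESeq2 Wald test, and 0 had an unadjusted p under 0.05. With scaling by total counts only, the balance changed to 6 rises and 3 falls for hypoxia, 9 and 6 for the ATF4 list, 8 and 1 for the chaperones, and 5 and 5 for both the TGF-beta and the BCL2 lists. The clock list had 9 rises and 2 falls there, and 1 rise and 3 falls among the 16 genes that could be tested with the recovered scaling.

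Luminal and secretory breast genes rose in 9 of 20 cases and fell in 2 (median 0.11), and most stayed below the control. At 24 h 15 of the 20 were below it, and at 48 h 12 were below and 6 above, against 21.8% and 24% of all genes. Their median log2 fold change against the control at 48 h was -0.69. Summed expression ranged from 3274 to 3470 CPM at 48 h and from 7099 to 7455 CPM in the control libraries. The transmembrane mucin MUC20 was at 7.56, 6.27, 6.73 and 6.74 CPM at 24 h and at 31.6, 27.7, 22.9 and 24.4 CPM at 48 h, and passed from below to above the control mean of 11.8 CPM (log2 fold change 1.96 ± 0.118, adjusted p = 6.56e-12). LCN2, lipocalin 2, which binds siderophores, was at 351, 365, 358 and 376 CPM at 24 h and at 748, 673, 659 and 652 CPM at 48 h, with no overlap between control, 24 h and 48 h libraries (log2 fold change 0.91 ± 0.0865, adjusted p = 9.29e-09). MUC16, the CA125 antigen, fell from 271 to 81.6 CPM. Among markers of blood cells, CSF1R was at 3.91, 2.37, 2.95 and 2.29 CPM at 24 h and at 13.0, 11.6, 9.88 and 10.3 CPM at 48 h (log2 fold change 1.95 ± 0.165, adjusted p = 1.59e-09), and CD14 rose from 2.32 to 5.44 CPM; 3 of the 5 markers tested rose and none fell (median 1.21); 1 fell at an unadjusted edgeR p under 0.05 and by DESeq2. The leukocyte marker PTPRC had 0 to 8 counts per library at these times, CD3E had 0 to 2, and HBB had none. Of 3 tested markers of fibroblasts and endothelium none was called by edgeR or DESeq2, and 1 was higher at an unadjusted edgeR p under 0.05.

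In the lost class the step from 24 to 48 h led back to a level not called different from the control. Higher at 24 h had been KRT17, a keratin of basal epithelium, at 295, 388, 409.8 and 405 CPM at 24 h and 90.8, 91.9, 86.8 and 82.6 CPM at 48 h, with controls at 102.6, 104, 87.4 and 98.7 CPM. FERMT1, the integrin activator kindlin-1, was at 195, 235, 258 and 237 CPM at 24 h and at 56.4, 52.4, 62.0 and 57.2 CPM at 48 h against a control mean of 56.5 CPM (log2 fold change -2.02 ± 0.0866, adjusted p = 2.89e-14). The secreted protein SCUBE3 and the tensin TNS4 fell 5.48-fold and 3.90-fold in the same way. Among changes that had been lower, DDC, the aromatic amino acid decarboxylase, was at 3.16, 1.86, 1.73 and 1.85 CPM at 24 h and at 10.9, 9.24, 11.7 and 12.4 CPM at 48 h (log2 fold change 2.35 ± 0.156, adjusted p = 3.02e-11). MUC15 was at 78.5, 47.2, 43.5 and 44.4 CPM at 24 h and at 221, 211, 264 and 269 CPM at 48 h, with controls at 195, 203, 265 and 240.1 CPM (log2 fold change 2.17 ± 0.150, adjusted p = 3.46e-10). In both genes replicate 1 of 24 h was the highest of its group and still below every 48 h library.

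Kept changes had no called step between 24 and 48 h. SRPX2, a secreted sushi-repeat protein, was at 15.4, 15.6, 18.6 and 19.8 CPM at 24 h and at 15.3, 12.8, 17.4 and 14.6 CPM at 48 h, and the controls were at 0.452, 0.462, 0.683 and 0.433 CPM (log2 fold change -0.20 ± 0.110, adjusted p = 0.126). ZNF365 had means of 0.404, 9.37 and 9.63 CPM in the control, at 24 h and at 48 h, and LINC02178 of 0.437, 9.98 and 10.5 CPM. On the lower side, the kinesin KIF5C was at 1.78, 1.47, 1.41 and 1.37 CPM at 24 h and at 1.16, 1.71, 1.90 and 1.22 CPM at 48 h, against 11.1, 10.4, 13.6 and 12.0 CPM in the control (log2 fold change 0.01 ± 0.179, adjusted p = 0.985). PDZK1 had means of 5.75, 1.30 and 0.944 CPM, SNCAIP of 6.44, 0.754 and 1.10 CPM, and PIP of 5.03, 1.12 and 0.984 CPM in the same order. A missing call does not show equal levels: without replicate 1 at 24 h, SPRR1B was called as lower at 48 h (adjusted p = 0.00136) and SNCAIP as higher (adjusted p = 0.0122). Without replicate 3 at 48 h, PDZK1 (log2 fold change -0.73, adjusted p = 0.0306), SRPX2 (-0.29, adjusted p = 0.0425) and SPRR1B (-0.21, adjusted p = 0.0391) were called as lower at 48 h.

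Gained changes were called against the control at 48 h and not at 24 h. RIPOR2 was at 8.01, 6.16, 5.83 and 4.88 CPM at 24 h and at 26.8, 23.6, 23.8 and 23.0 CPM at 48 h, with controls at 5.78, 7.36, 7.13 and 7.21 CPM (log2 fold change 1.96 ± 0.135, adjusted p = 4.8e-11). Control and 24 h libraries overlapped, and all 48 h libraries lay far above both. The non-coding RNAs DDX59-AS1, which is antisense to another gene, and AC011294.1 rose 4.68-fold and 6.26-fold, and MAB21L3 rose 4.08-fold. Among gained changes to lower levels, the growth factor PDGFA was at 7.76, 9.15, 10.1 and 7.08 CPM at 24 h and at 3.60, 3.57, 3.87 and 4.03 CPM at 48 h, with controls at 9.04, 6.94, 5.59 and 6.39 CPM (log2 fold change -1.17 ± 0.144, adjusted p = 5.19e-07). ENC1, an actin-binding protein, was at 28.8, 46.4, 49.4 and 52.5 CPM at 24 h, where replicate 1 was the lowest, and at 24.0, 20.7, 21.1 and 20.1 CPM at 48 h (log2 fold change -1.04 ± 0.1247, adjusted p = 3.5e-07). The proprotein convertase PCSK6 fell 2.12-fold, and HNRNPA3P6, a processed pseudogene whose reads may belong to its parent, 2.33-fold.

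Enlarged changes continued in the direction taken by 24 h. ENTPD3, which hydrolyses extracellular nucleotides, was at 0.840, 0.848, 1.28 and 1.22 CPM at 24 h and at 5.54, 3.96, 6.46 and 5.44 CPM at 48 h, with controls at 0.553, 0.378, 0.427 and 0.288 CPM (log2 fold change 2.36 ± 0.172, adjusted p = 1.33e-10). The long non-coding RNA LINC02154 was at 3.91, 4.97, 4.74 and 5.22 CPM at 24 h and at 24.8, 18.05, 27.7 and 24.9 CPM at 48 h, with controls at 0.151, 0.126, 0.341 and 0.0961 CPM (log2 fold change 2.34 ± 0.163, adjusted p = 8.37e-11). FYB1, an adaptor protein known from T cells, rose from 1.47 to 5.20 CPM. On the lower side, S100A8, a subunit of calprotectin, was at 57.8, 60.003, 49.4 and 65.2 CPM at 24 h and at 24.9, 29.6, 23.0 and 24.7 CPM at 48 h, both far under the controls at 232, 197, 219.9 and 218 CPM (log2 fold change -1.19 ± 0.0900, adjusted p = 2.71e-10). The GABA receptor subunit GABBR2 fell 2.20-fold and the cancer-testis gene XAGE2 2.40-fold.

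In the turned class the step from 24 to 48 h crossed the control. IGFL1, an IGF-like secreted protein, was at 17.4, 16.6, 13.0 and 14.9 CPM at 24 h and at 0.831, 1.52, 0.760 and 0.816 CPM at 48 h, with controls at 1.36, 2.77, 1.45 and 2.02 CPM, and had the largest fall of all genes named (log2 fold change -3.99 ± 0.194, adjusted p = 1.69e-13). Replicate 2 at 48 h was within the controls and the other 3 below them. S100A7, psoriasin, was at 448, 511, 478 and 583 CPM at 24 h and at 132, 146, 164 and 164 CPM at 48 h, with a control mean of 359 CPM (log2 fold change -1.74 ± 0.101, adjusted p = 3.46e-12). Its near copy S100A7A fell 2.79-fold and was below the control at both times. PAQR5, a membrane progesterone receptor, was at 32.9, 35.4, 35.2 and 30.5 CPM at 24 h and at 4.88, 4.69, 7.10 and 6.30 CPM at 48 h (log2 fold change -2.53 ± 0.114, adjusted p = 5.77e-14), and the insulin receptor substrate IRS1 fell 3.61-fold. The complement component C2 turned upward, from 2.52, 2.03, 2.12 and 1.71 CPM at 24 h to 9.42, 10.4, 10.3 and 9.65 CPM at 48 h, with controls at 2.86, 2.94, 2.18 and 2.93 CPM (log2 fold change 2.24 ± 0.135, adjusted p = 5.86e-12). TSHZ2, a zinc finger protein, rose 5.38-fold. ACTB, often used as a reference gene, was also in this class, at 13604, 14665, 15840.0 and 14712 CPM at 24 h and 9416, 8675, 8307 and 8292 CPM at 48 h against a control mean of 10494 CPM (log2 fold change -0.76 ± 0.0622, adjusted p = 9.48e-10). GAPDH was at 2153 ± 38.1 CPM at 24 h and 2059 ± 214 CPM at 48 h (SD, n = 4), with no call (log2 fold change -0.06 ± 0.0771, adjusted p = 0.511), and its sign depended on the scaling.

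The genes that rose and those that fell were also tallied by kind and level. Of 2614 genes that rose above 1.5-fold, 740 were long non-coding RNAs (28.3%), and of 1325 that fell past the matching limit 104 were (7.85%), against 14.5% of all genes tested. The genes that rose were lower expressed, with a median of 3.6 CPM in the group with the higher mean, against 22.1 CPM for those that fell and 14.2 CPM overall. They also had shorter merged exons in GENCODE 29, with medians of 3435 and 5500 bases and 8 and 10 exons for rises and falls, and 4481 bases over all genes tested. Among protein-coding genes alone the medians were 4163 and 5897.5 bases and 5.79 and 31.2 CPM. By class, long non-coding RNAs made up 31.3% of gained and 30.0% of enlarged changes to higher levels, and 3.33% of changes to higher levels that were lost. Lower counts give wider errors, and the part of level in these shares was not tested.

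The levels at 12 and 72 h place the step in the course of the response, given as means without a test. For KRT6A, the successive means from 12 to 72 h were 1118, 642, 70.2 and 232 CPM. AREG went from 83.6 CPM at 12 h through 53.3 and 16.3 to 88.8 CPM at 72 h, and FOSL1 from 248 CPM through 82.1 and 25.7 to 93.4 CPM. In these 3 genes 48 h was the lowest of the 4 EGF times. VIM peaked at 24 h, with 204 CPM at 12 h and 165 CPM at 72 h. SCD was at 1564 CPM at 12 h and 2695 CPM at 72 h, so that 48 h was its only EGF time above the control mean. ENTPD3 and LINC02154 continued upward, to 19.5 and 105 CPM at 72 h, and LCN2 to 2008 CPM.

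**Figure D5:**
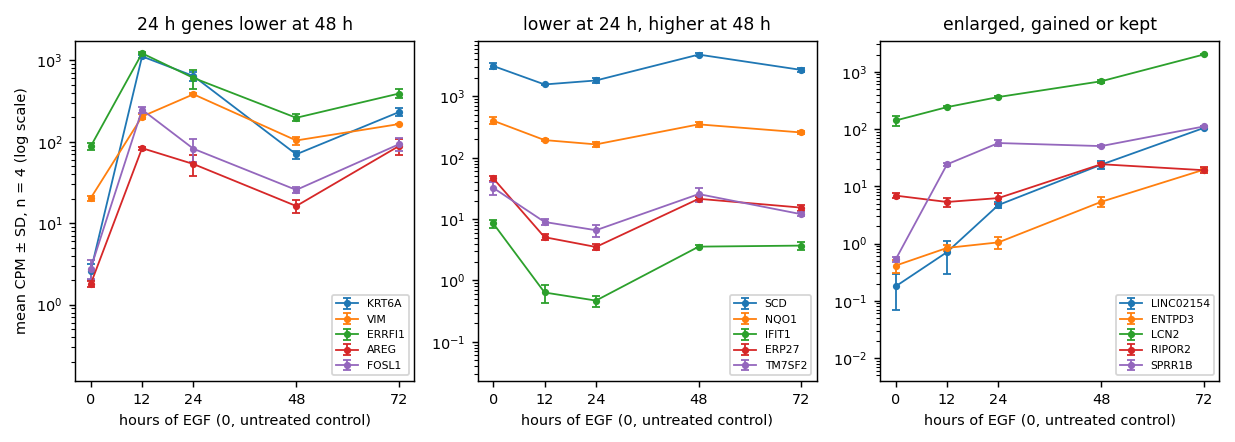
Mean expression in CPM (vertical axes, log scale) against hours of EGF (0 is the untreated control) for 15 genes in 3 panels, with error bars of 1 SD over 4 libraries. At the left, KRT6A, VIM, ERRFI1, AREG and FOSL1 have their lowest EGF level at 48 h; in the middle SCD, NQO1, IFIT1, ERP27 and TM7SF2 are higher at 48 h than at 24 h; at the right LINC02154, ENTPD3 and LCN2 are highest at 72 h.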

How the data were processed

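RNA of MDA-MB-468 cells was extracted with RNeasy kits, turned into Corall mRNA libraries (Lexogen) and read single-end on an Illumina NS500. The authors deposited estimated counts per gene, which need not be whole, for pairs of groups, and next to them normalized values, which were treated as a score since how they were made is not given in full. The processing notes of the submitters name hg38 and DESeq2; the aligner, annotation, strand setting and use of molecular identifiers are not given in the sources used here. The authors' columns of fold changes and p-values for their own comparisons were not used.

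Estimated counts of the 20 libraries were rounded. Genes were filtered by filterByExpr, libraries scaled by TMM, and 1 mean per group fitted with the robust quasi-likelihood test of edgeR (version 4.0.16, with limma 3.58.1, in R 4.3.3); p-values were adjusted by the method of Benjamini and Hochberg over 16522 genes. CPM were computed on TMM-scaled library totals. The labels call the libraries biological replicates, and p-values measure the spread between them. Genes were sorted into classes by the tests of 24 h against control, 48 h against control and 48 h against 24 h at an adjusted p of 0.05. Scripts were tested on simulated data. DESeq2 (version 1.42.0) was run as an alternative, beside other scalings and filters, glmTreat, a replicate block and leaving out each control, 24 h and 48 h library. Between replicates, squared differences averaged over genes were 7.456 to 12.51 times those of count sampling at 24 h. At 48 h they were 4.524 to 58.14 times, so total counts alone do not set the precision. The intervals of low genes are the widest.

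The samples compared, the 32 gene lists and the tests were chosen with earlier results of these data known, so lists are described by counts and medians. Genes were named by rule: the 8 largest rises and falls with at least 5 CPM in a group and no overlap of libraries, up to 4 called members per list, up to 4 genes per class and direction, and a list of 19 EMT, receptor and desaturase genes, of which 17 were tested. A few genes that the rule picked are not reported here. Promoter sequences, coordinates and gene types came from RefSeq (GRCh38.p14) and GENCODE 29.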

Additional observations from a re-analysis of the deposited data

Results flagged for a closer look

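In 156 genes, each group of 4 libraries at 24 and 48 h was searched for a library standing apart from the other 3 by Dixon's ratio at its critical value for 4 samples. Of 312 groups 13 held one, where chance gives about 1 in 20. All 6 at 24 h were replicate 1, and 5 of the 7 at 48 h were replicate 2. At 24 h, replicate 1 was at 46.6 CPM for SPRR1B (others 59.7 to 61.2), 399 CPM for PHLDA1 (686 to 739), 3.26 CPM for METTL7A (0.833 to 0.976), 3.16 CPM for DDC (1.73 to 1.86), 78.5 CPM for MUC15 (43.5 to 47.2) and 53.3 CPM for SLC16A1 (64.6 to 65.0). At 48 h, replicate 2 was at 1.52 CPM for IGFL1 (0.76 to 0.831), 102 CPM for CDH1 (89.2 to 90.8), 140.0 CPM for EPCAM (164 to 166), 7.43 CPM for ZNF365 (10.1 to 10.6) and 1.37 CPM for SNCAIP (0.988 to 1.05). Replicate 3 at 48 h was at 6.38 CPM for FYB1 (4.76 to 4.84), and replicate 4 at 2.81 CPM for IRS1 (2.05 to 2.11).

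The effect of EGF against the control was called in opposite directions at 24 and 48 h in 20 of the genes named, and the difference is the tested step between the times. A call does not mean separate libraries: CSF1R was at 2.29 to 3.91 CPM at 24 h and at 3.01 to 4.67 CPM in the control. Tested by glmTreat against a 1.5-fold change, 10 of all genes turned, against 487 in the main tests. From higher to lower, the log2 fold change between 48 and 24 h was -3.99 for IGFL1, -2.53 for PAQR5, -1.85 for IRS1, -1.74 for S100A7, -1.31 for FOS, -1.09 for UTP20, -1.08 for BCL2, -0.77 for SCD5, -0.76 for ACTB, -0.72 for MCM6 and -0.68 for NOP2. From lower to higher it was 2.48 for UGT1A6, 2.43 for TSHZ2, 2.24 for C2, 1.96 for MUC20, 1.95 for CSF1R, 1.40 for SCD, 0.93 for H2BC12, 0.72 for FTH1 and 0.68 for TGFB2.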

How the results depend on the processing

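Scaling by total counts only gave 2337 falls between 24 and 48 h against 4020. The scaling recovered from the deposited normalized values has its own factor for each gene in each library. The log2 change of the factor between 24 and 48 h had an SD of 0.159 over genes. With this scaling, which could be applied to 11956 genes, 4994 genes were called (2140 higher, 42.9%), and 4742 of 6396 calls remained, with 1 in the opposite direction. There, 6338 genes differed from the control at 24 h, 3212 of them higher and 3126 lower, and at 48 h 4332, of which 1949 were higher and 2383 lower, with 1054 reduced, 1703 kept, 185 enlarged, 742 gained and 187 turned. TMM scaling of those 11956 genes, tried only after the data had been seen, gave 6348 calls between the times (3203 higher, 3145 lower) and kept 5913 of the 6396, so the fall from 5913 to 4742 came with the recovered factors and not with the smaller set of genes. Tested against a 1.5-fold change by glmTreat, a stricter question, 1818 genes differed between the times (1285 higher, 533 lower), 3474 from the control at 24 h, 1854 upward and 1620 downward, and at 48 h 1916, of which 1506 were upward and 410 downward, with 874 lost, 251 reduced, 1031 kept, 57 enlarged, 216 gained and 10 turned. With no filter on low counts, 323 genes turned.

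Leaving out each of the 12 control, 24 h and 48 h libraries in turn gave 7440 to 8704 calls between the times (3875 to 4452 higher, 3565 to 4260 lower), 9105 to 9967 for 24 h and 6894 to 8088 for 48 h against the control, 2820 to 3471 lost, 1647 to 1996 reduced, 2352 to 2748 kept, 405 to 605 enlarged, 1218 to 1666 gained and 351 to 554 turned. The difference in mitochondrial share ranged from -1.33 to 1.01 percentage points. The DESeq2 test kept 7911 of the 8292 calls, the 8 libraries alone 7459 of 7998, and a minimum of 10 counts in every library 6457 of 6813.

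The groups share replicate numbers, and the deviations of same-numbered libraries correlated at 0.019, 0.134, 0.0858 and 0.163. Replicates 2, 3 and 4 at 24 h each correlated best with the same number at 48 h. Replicate 1 at 24 h correlated best with replicate 2 at 48 h (0.032). Pairs of unlike number ranged from -0.139 to 0.052. Whether equal numbers mark pairs is not settled by these values, and the main model did not pair the libraries. With the replicate block, 8558 genes were called and 8197 of the 8292 calls remained, with 3263 lost, 2014 reduced, 2582 kept, 535 enlarged, 1530 gained and 540 turned.

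Among the genes named, 3378 of the values under the alternatives kept their direction and side of the threshold, 8 passed it, 4 no longer did and 11 changed sign, all in genes with no call: CDH1 (0.012 with scaling by total counts), GAPDH (0.089 there, 0.0033 with upper-quartile scaling), KIF5C (-0.013 with the replicate block, and from -0.142 to 0.098 without single libraries) and ZNF365 (from -0.0103 to 0.141 without single libraries). Depth limits mainly genes of a few CPM.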

Other observations

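Some members of the smaller lists had not been described. BMP6, a ligand of the BMP family, and ENO2, a neuronal enolase, both fell: BMP6 was at 13.4, 15.0, 15.4 and 15.8 CPM at 24 h and at 2.72, 1.86, 2.01 and 2.36 CPM at 48 h with no overlap (log2 fold change -2.74 ± 0.140, adjusted p = 3.61e-13, edgeR's quasi-likelihood test), and ENO2 had means of 7.46 and 3.90 CPM (log2 fold change -0.94 ± 0.150, adjusted p = 1.74e-05). The chemokine CXCL1 had means of 15.5 and 6.28 CPM (log2 fold change -1.30 ± 0.281, adjusted p = 0.000977). In the death receptor list, TNFRSF21 had means of 233 and 121 CPM (log2 fold change -0.95 ± 0.0706, adjusted p = 2.05e-10) and the initiator caspase CASP10 of 32.8 and 53.2 CPM (log2 fold change 0.70 ± 0.0737, adjusted p = 5.11e-08). In the ATF4 list, the stress regulator NUPR1 had means of 76.4 and 130.2 CPM (log2 fold change 0.77 ± 0.107, adjusted p = 2.76e-06) and the amino acid transporter SLC38A2 of 752 and 471 CPM (log2 fold change -0.67 ± 0.126, adjusted p = 0.000141).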
